A study of Mus musculus with 24 samples.

Results

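Optic vesicle patterning regulators were followed here as a set of 8 genes, Vsx1, Mitf, Vax1, Vax2, Tbx2, Tbx5, Mab21l1 and Mab21l2, taken by symbol from the 49705 gene entries of the expression table. Each had 1 entry, and all 8 were among the 21005 entries that passed the filter, which asked for 10 normalized counts or more in 3 or more libraries. Values are read counts divided by a size factor for each library (normalized counts).

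The optic vesicle is the outgrowth of the forebrain that forms the eye. It becomes divided into neural retina, retinal pigment epithelium and optic stalk, and its retina acquires dorsal and ventral domains under the influence of BMP and Hedgehog signals. Mitf, a basic helix-loop-helix leucine zipper factor, directs pigment cell genes. Vax1 and Vax2 are homeodomain factors of the stalk and the ventral eye, Tbx2 and Tbx5 are T-box factors of the dorsal eye, Vsx1 is a homeodomain factor known for its role in retinal bipolar cells, and Mab21l1 and Mab21l2 are related proteins needed for growth of the lens and retina.

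Optic vesicle organoids were grown from Rx-GFP K/I EB5 cells, a mouse embryonic stem cell line with GFP knocked into the Rax locus, which all groups carried. Aggregates were seeded with 4500 cells on day 0, and growth factor-reduced Matrigel was added to 2% on day 1. The labels name GMEM with 1.5% serum replacement as the medium, whereas the published methods give a chemically defined medium free of growth factors for the initial organoids and the serum replacement medium for knockout organoids. Polyadenylated RNA of 24 libraries was sequenced in 8 groups of biological triplicates, each library from 24 pooled organoids: ungated live cells at days 0, 1, 2 and 3, then at days 4 and 5 separate libraries of the GFP-positive gate and the GFP-negative gate. By the study's methods the GFP-negative gate also took cells with low GFP, and the GFP-positive gate took moderate and high GFP. Both gates of a day were sorted from that day's samples, so their libraries may share organoids. The tests treated them as independent. In such bulk samples, fewer cells of a type and less RNA per cell cannot be told apart.

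Normalized counts summed to 39849111 to 51587535 per library. Rax, the sorted locus, followed the labels, with 975 ± 38.4 normalized counts for the GFP-negative gate against 9559 ± 436 for the GFP-positive gate at day 4 (SD, n = 3 each). At day 5 these were 447 ± 60.6 against 8608 ± 463. Rank correlations between replicates were 0.930 to 0.948 for 22 pairs and 0.924 to 0.925 for the pairs with day 0 replicate 1.

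The members include 3 pairs of paralogues, and similar sequence could let reads of one be counted for the other. For the Tbx and Mab21 pairs, the most similar 90-base stretch of the coding sequence is given here, with bases that differ within the pair in capitals. The sequences were read from the GENCODE transcripts of GRCm38, and positions count from 1 at the start codon. The Tbx stretch lies in the T-box.
Tbx2, coding bases 752 to 841: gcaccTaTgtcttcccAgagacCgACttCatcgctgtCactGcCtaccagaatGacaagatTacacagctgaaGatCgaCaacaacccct
Tbx5, coding bases 605 to 694: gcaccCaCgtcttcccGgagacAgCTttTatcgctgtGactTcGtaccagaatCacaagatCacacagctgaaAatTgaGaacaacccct
Mab21l1, coding bases 183 to 272: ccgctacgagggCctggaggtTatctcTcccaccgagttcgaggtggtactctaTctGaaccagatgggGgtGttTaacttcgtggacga
Mab21l2, coding bases 183 to 272: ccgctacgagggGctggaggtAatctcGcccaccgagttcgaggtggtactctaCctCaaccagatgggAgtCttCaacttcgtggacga
These stretches held 15 and 8 differing bases for the Tbx and Mab21 pairs. The longest identical run was 23 bases for Vax1 and Vax2, 20 for Tbx2 and Tbx5 and 26 for Mab21l1 and Mab21l2, so no word of 31 bases, the default word length of the program used for counting, was shared within a pair. Over their equal coding lengths of 1080 bases, Mab21l1 and Mab21l2 were 80.65% identical.

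On day 5, the GFP-positive cells carried far more transcript of most of these regulators than the GFP-negative cells. Mitf, Vax1, Vax2, Tbx2, Mab21l1 and Mab21l2 were higher in the GFP-positive gate, with differences of 1.85 to 4.99 on the log2(value + 1) scale, whereas Vsx1 and Tbx5 did not pass the test. Calling a gene required a log2-fold-change beyond 1.5 in size together with an adjusted p below 0.001 from limma after Benjamini-Hochberg correction. Called higher were 6 of 8 members, against 0.4% of all genes tested, while 4.61% were called lower. The members were chosen with earlier results of these data known, so this count is a description. The paper had already reported Vax1 and Mitf as higher between these gates. The median difference was 2.63 over the members and -0.0017 over all genes. In 6 of 8 members every GFP-positive library lay above every GFP-negative library, which held for 16% of all genes.

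One day earlier the same comparison looked different. In limma, 0 of 8 members passed both thresholds on day 4, against 0.328% of genes called higher and 3.63% called lower. At an unadjusted p under 0.05 there were 4 members, Vax1 and Mab21l1 with higher and Tbx2 and Tbx5 with lower values in GFP-positive cells. Over all genes, 9.67% were higher and 16% lower at that cut. The libraries of the gates did not overlap for Vax1 and Mab21l1, higher in all GFP-positive libraries, and for Mitf, Tbx2 and Tbx5, lower in all of them. Over all genes, 17.8% lay wholly higher and 20.5% wholly lower. The change of the gate difference from day 4 to day 5 was tested as an interaction in limma with Benjamini-Hochberg adjustment, and 2 of 8 members passed, Mitf and Tbx2, against 0.0762% of all genes.

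**Figure D1:**
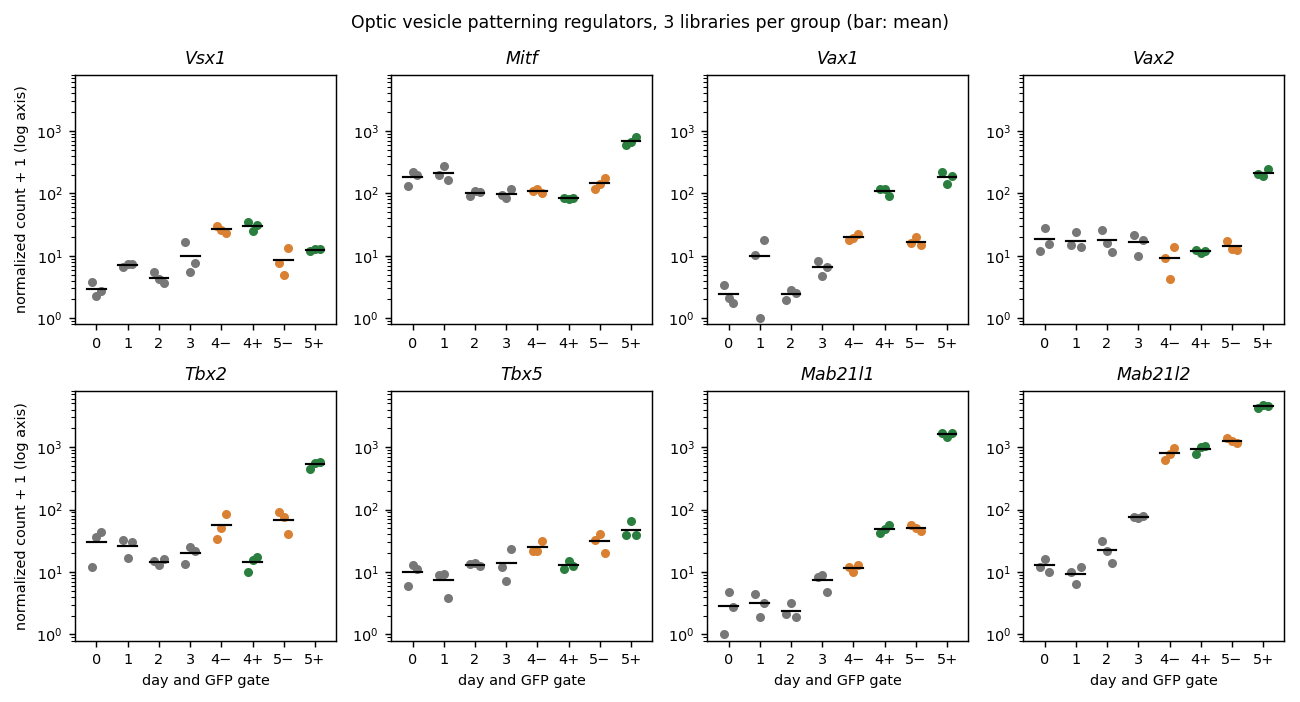
Normalized counts plus 1 on a log axis for the 8 regulators, with 1 point per library and a bar at the mean of 3 libraries. Groups run from day 0 to day 3 without a gate, then days 4 and 5 with a minus for GFP-negative and a plus for GFP-positive cells. In 6 panels the day 5 GFP-positive libraries lie well apart from the day 5 GFP-negative ones, while Vsx1 peaks on day 4 and Tbx5 overlaps between the day 5 gates.

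**Figure D2:**
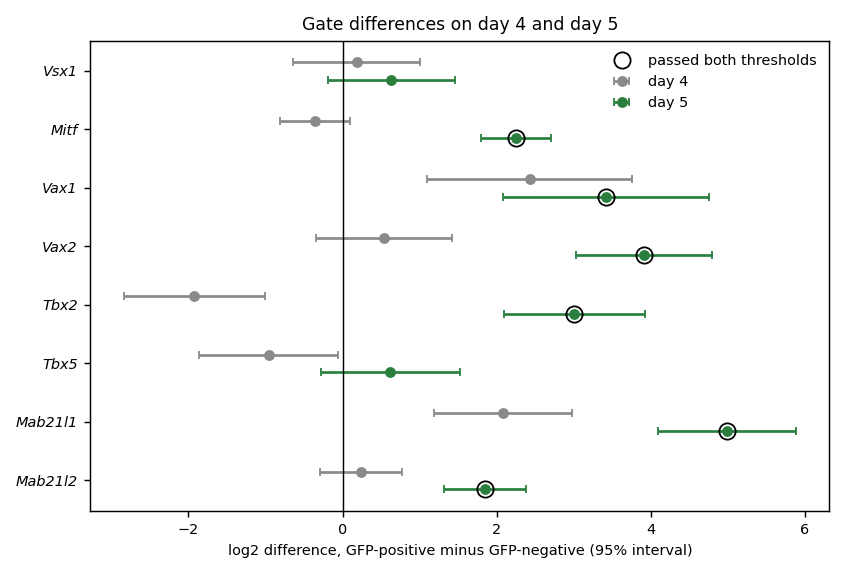
Difference between the gates for each regulator as log2(value + 1), GFP-positive minus GFP-negative, on day 4 (grey) and day 5 (green), with 95% intervals from limma. Circled points passed both thresholds: Mitf, Vax1, Vax2, Tbx2, Mab21l1 and Mab21l2 on day 5, and no member on day 4.

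Mitf (ENSMUSG00000035158, chromosome 6 from 97807052 to 98021349, plus strand), the pigment cell regulator, had a single group well above the rest, the GFP-positive cells of day 5. On day 4, GFP-negative libraries had 107, 115 and 99.5 normalized counts and GFP-positive libraries 84.6, 80.6 and 83.9. On day 5, GFP-negative libraries had 115, 141 and 176 and GFP-positive libraries 594, 657 and 803. Every GFP-positive library lay below the GFP-negative ones on day 4 and far above them on day 5. The log2 difference between gates was -0.36 on day 4 (adjusted p = 0.329) and 2.25 on day 5 (SE 0.22, adjusted p = 1.22e-07), both from limma with Benjamini-Hochberg adjustment. Its change between the days was 2.61 (SE 0.31, adjusted p = 9.64e-05 in limma). Within the GFP-positive gate Mitf rose by 3.02 from day 4 to day 5 (adjusted p = 1.09e-08, limma), and within the GFP-negative gate the difference was 0.41 (adjusted p = 0.279, limma).

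Before the gates, mean Mitf counts of the 3 libraries were 182 ± 47.9 at day 0 and 210 ± 56.1 at day 1, then 100.5 ± 9.27 at day 2 and 97.1 ± 16.8 at day 3 (SD). In the order of group means, day 5 GFP-positive stood first and apart from day 1, while each of the lower neighbours overlapped in its libraries. The day 0 to day 3 difference of -0.88 reached neither the fold nor the adjusted p threshold (adjusted p = 0.00235, limma).

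Mitf has 8 annotated transcripts and 3 starts in the RefSeq promoter table, and its table value sums over all transcripts. Which start the day 5 transcripts used was not resolved. The 250 bases before each start are shown because the starts carry different sequence (RefSeq promoter table, GRCm38.p6, plus strand), with searched motifs in capitals.
Mitf start 1, chr6:97806808-97807057: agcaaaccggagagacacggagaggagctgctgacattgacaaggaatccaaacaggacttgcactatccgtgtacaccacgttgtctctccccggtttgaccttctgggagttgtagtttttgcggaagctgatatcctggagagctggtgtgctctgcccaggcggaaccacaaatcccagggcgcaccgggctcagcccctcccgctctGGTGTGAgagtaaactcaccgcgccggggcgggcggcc
Mitf start 2, chr6:97929567-97929816: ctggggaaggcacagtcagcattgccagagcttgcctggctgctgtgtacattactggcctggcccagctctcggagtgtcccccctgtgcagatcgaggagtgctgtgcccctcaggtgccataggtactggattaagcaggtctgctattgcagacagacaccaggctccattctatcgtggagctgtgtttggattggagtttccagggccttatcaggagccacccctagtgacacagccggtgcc
Mitf start 3, chr6:97991533-97991782: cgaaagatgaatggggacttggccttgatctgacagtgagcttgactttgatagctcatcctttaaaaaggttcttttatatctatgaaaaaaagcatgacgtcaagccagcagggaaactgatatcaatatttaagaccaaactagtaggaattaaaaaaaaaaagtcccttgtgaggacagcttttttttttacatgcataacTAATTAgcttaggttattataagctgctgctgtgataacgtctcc
The motifs searched on both strands were TAATTA, a homeodomain core, TCACACC, a T-box core, and CACGTG and CATGTG, E-boxes that MITF can bind. Start 1 held GGTGTGA, the reverse complement of the T-box core, start 3 held TAATTA, and start 2 held none. Over 32851 promoter windows of the same length, 4.84% held TAATTA, 3.33% the T-box core, 6.02% CACGTG and 12.3% CATGTG. In all, 4 of 8 members, Vsx1, Mitf, Vax1 and Mab21l2, had promoter entries, and the Vax1 window held no match. Of the Vsx1 and Mab21l2 windows, which also held none, 223 and all 250 bases were annotated exon of the gene itself, so they are mostly or wholly transcript sequence. A match describes letters and not a bound site.

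Vax1 (ENSMUSG00000006270, chromosome 19 from 59166187 to 59170056, minus strand), a regulator of the optic stalk, was already raised in GFP-positive cells of day 4 relative to day 3. Its 3 day 3 libraries had 7.29, 3.83 and 5.61 normalized counts, and the day 4 GFP-positive libraries had 115, 115 and 91.0. The day 4 GFP-negative libraries had 17.1, 18.5 and 21.4, well below every GFP-positive library. On day 5 the GFP-negative libraries had 14.9, 19.0 and 14.0 and the GFP-positive libraries 217, 138 and 191, again without overlap.

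The rise of Vax1 from day 3 to GFP-positive cells of day 4 was 4.06 on the log2 scale (adjusted p = 2.81e-05, limma). At day 4 the gates differed by 2.43 (SE 0.64), which missed the threshold (Benjamini-Hochberg adjusted p = 0.0108, limma). The spread that limma used for Vax1 came partly from day 1, when its libraries held 9.21, 0 and 17.1 normalized counts. Without day 1 replicate 2 the day 4 difference passed (adjusted p = 1.33e-05, limma), and in a fit of the 2 gates alone it also passed (adjusted p = 0.000692). The day 5 gate difference of 3.42 passed (adjusted p = 0.000476, limma). In all 6 fits without 1 of the day 5 libraries it was 3.28 to 3.61 but missed the threshold (adjusted p from 0.00145 to 0.00355, limma). The change of the gate difference was 0.99 (adjusted p = 0.838, limma), and the day 5 minus day 4 difference in GFP-positive cells was 0.75 (adjusted p = 0.620, limma).

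Vax2 (ENSMUSG00000034777, chromosome 6 from 83711264 to 83738313, plus strand), the ventral retina homeodomain gene, stayed low through day 4. Group means were 15.5 to 17.3 normalized counts on days 0 to 3. On day 4 the GFP-negative libraries had 8.20, 3.21 and 13.0 and the GFP-positive libraries 11.4, 10.1 and 11.2, which overlapped. On day 5 the GFP-negative libraries had 16.4, 11.9 and 11.5 and the GFP-positive libraries 201, 189 and 248, which did not overlap. The gate difference was 0.54 on day 4 (adjusted p = 0.487, limma) and 3.91 on day 5 (SE 0.42, adjusted p = 5.85e-07, limma). From day 4 to day 5 Vax2 rose by 4.16 in GFP-positive cells (adjusted p = 9.67e-07, limma). The change of the gate difference, 3.37, did not pass (adjusted p = 0.00438, limma), though it ranked 23 of 21005 genes from the highest.

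The log2 ratio of the Vax paralogues was lower on day 5 than on day 4 in both gates. On the log2 scale of (Vax1 + 1) over (Vax2 + 1), the mean of 3 libraries was -1.29 ± 0.21 at day 3 and, for the GFP-positive gate, 3.18 ± 0.24 at day 4 against -0.23 ± 0.30 at day 5 (SD). In GFP-negative cells the ratio was 1.29 ± 0.81 on day 4 and 0.26 ± 0.38 on day 5. The day 4 and day 5 libraries did not overlap in either gate.

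Vax2os, an antisense gene on the opposite strand, overlaps part of the Vax2 span with no shared exonic base. Its mean normalized count was 177 ± 49.1 at day 1 (SD, n = 3) and 65.2 at day 3. At day 4 it was 17.7 for the GFP-negative and 3.62 for the GFP-positive gate, against 12.1 and 35.5 at day 5. Vax2os fell from day 3 to day 4 in both gates, by 3.97 in GFP-positive cells and by 1.83 in GFP-negative cells (adjusted p = 0.000735, limma), and was lower in GFP-positive cells on day 4 (-2.14, adjusted p = 0.000133, limma). From day 4 to day 5 it rose by 3.10 in GFP-positive cells (adjusted p = 3.75e-06, limma), while its day 5 gate difference of 1.52 did not pass (adjusted p = 0.00372, limma). The strand setting of the counting is not given in the sources used here.

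Tbx2 (ENSMUSG00000000093, chromosome 11 from 85832551 to 85841948, plus strand), a transcriptional repressor of the dorsal eye, had its gates in opposite order on days 4 and 5. The day 4 GFP-negative libraries had 32.9, 50.4 and 84.3 normalized counts and the GFP-positive libraries 9.09, 14.7 and 16.3. The day 5 GFP-negative libraries had 89.3, 74.8 and 40.4 and the GFP-positive libraries 450, 555 and 586. The gates did not overlap on either day, with GFP-positive libraries lower on day 4 and higher on day 5. The difference was -1.92 on day 4 (adjusted p = 0.00349, limma) and 3.01 on day 5 (SE 0.44, adjusted p = 2.81e-05, limma). Without day 0 replicate 1 the day 4 difference passed (adjusted p = 0.00043, limma).

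The change of the Tbx2 gate difference between the days was 4.93 (SE 0.62, Benjamini-Hochberg adjusted p = 0.000237, limma) and ranked 4 of 21005 genes from the highest. It fell short of the threshold in 3 of 12 fits without 1 of the gated libraries, with adjusted p of 0.00113 without day 4 GFP-positive replicate 1, 0.00111 without day 5 GFP-negative replicate 3 and 0.00147 without day 5 GFP-positive replicate 3. Within the GFP-positive gate Tbx2 rose by 5.24 (adjusted p = 6.55e-08, limma), and within the GFP-negative gate the difference was 0.31 (adjusted p = 0.741, limma). Between day 3, at 19.0 ± 6.09 normalized counts, and GFP-negative cells of day 4 the difference was 1.46 (adjusted p = 0.0230, limma).

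Tbx5 (ENSMUSG00000018263, chromosome 5 from 119832668 to 119885219, plus strand), a dorsal retina gene that is also a heart and forelimb regulator, had low levels, the highest in GFP-positive cells of day 5. Group means were 6.35 to 13.1 normalized counts on days 0 to 3. The day 4 GFP-negative libraries had 20.6, 20.9 and 30.9 normalized counts and the GFP-positive libraries 10.1, 13.8 and 11.4, without overlap. The day 5 GFP-negative libraries had 32.2, 40.3 and 19.0 and the GFP-positive libraries 37.5, 63.5 and 38.9, which overlapped. The gate difference was -0.96 on day 4 (adjusted p = 0.160, limma) and 0.62 on day 5 (adjusted p = 0.413, limma), with a 95% interval of -0.28 to 1.52 on day 5. The difference of 1.87 between day 5 and day 4 in GFP-positive cells did not pass (adjusted p = 0.00639, limma). Against days 0 and 1, GFP-positive cells of day 5 were called higher (2.28 and 2.76, adjusted p = 0.000101 and 1.08e-05, limma). Against days 2 and 3 they were not (1.82 and 1.89, adjusted p = 0.00117 and 0.00116, limma).

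The log2 ratio of Tbx2 to Tbx5 in the GFP-positive gate was 0.14 ± 0.31 at day 4 against 3.51 ± 0.39 at day 5, whereas the GFP-negative gate had 1.10 ± 0.40 against 1.12 ± 0.29 (SD over 3 libraries). The day 5 GFP-positive libraries lay above all others.

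**Figure D3:**
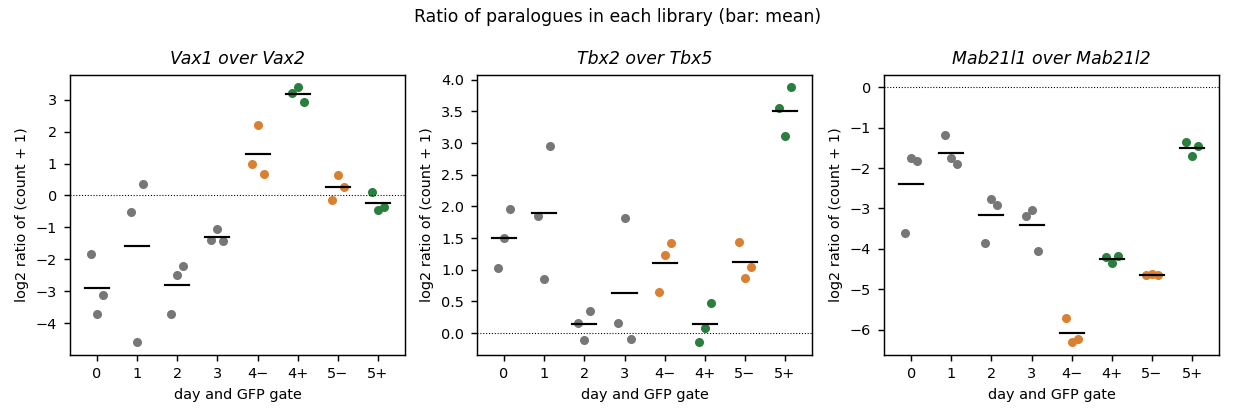
Log2 ratio of (normalized count + 1) within each paralogue pair, 1 point per library and a bar at the mean of 3 libraries, by day and GFP gate. Vax1 over Vax2 is highest in day 4 GFP-positive cells at 3.18, Tbx2 over Tbx5 is highest in day 5 GFP-positive cells at 3.51, and Mab21l1 over Mab21l2 is lowest in day 4 GFP-negative cells at -6.09.

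Mab21l1 and Mab21l2 had the highest levels of the set in the GFP-positive cells of day 5. Mab21l2 (ENSMUSG00000057777, chromosome 3 from 86545581 to 86548629, minus strand) was the member called earliest in the course. Its libraries had 74.5, 72.8 and 78.0 normalized counts on day 3, and group means were 11.8, 8.47 and 21.1 on days 0, 1 and 2. On day 4 the GFP-negative libraries had 628, 783 and 965 and the GFP-positive libraries 766, 996 and 1028, which overlapped. On day 5 the GFP-negative libraries had 1407, 1231 and 1166 and the GFP-positive libraries 4282, 4797 and 4583, which did not.

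Mab21l2 rose by 1.85 from day 2 to day 3 (adjusted p = 5.03e-05, limma) and by 2.61 from day 0 to day 3 (adjusted p = 4.38e-08, limma). From day 3 to day 4 it rose in both gates, by 3.60 in GFP-positive cells (adjusted p = 3.18e-10, limma) and by 3.36 in GFP-negative cells (adjusted p = 7.93e-09, limma). The gate difference was 0.24 on day 4 with a 95% interval of -0.29 to 0.77 (adjusted p = 0.633, limma), and 1.85 on day 5 (SE 0.25, adjusted p = 1.40e-05, limma). From day 4 to day 5 it rose by 2.30 in GFP-positive cells (adjusted p = 2.73e-06, limma), and the difference in GFP-negative cells was 0.70 (adjusted p = 0.0906, limma). The change of the gate difference was 1.61 (adjusted p = 0.0276, limma).

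Mab21l1 (ENSMUSG00000056947, chromosome 3 from 55782510 to 55785001, plus strand) came later and differed more between the gates. Its day 3 libraries had 7.32, 7.96 and 3.79 normalized counts. The day 4 GFP-negative libraries had 11.0, 8.92 and 11.7 and the GFP-positive libraries 40.9, 47.6 and 55.8. The day 5 GFP-negative libraries had 54.8, 48.9 and 45.2 and the GFP-positive libraries 1680, 1469 and 1658. The gates did not overlap on either day, and the day 5 GFP-negative libraries overlapped the day 4 GFP-positive ones.

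From day 3, Mab21l1 rose by 2.78 in GFP-positive cells of day 4 (adjusted p = 2.27e-05, limma), and the difference in GFP-negative cells was 0.69. The gate difference was 2.09 on day 4 (adjusted p = 0.00141, limma) and 4.99 on day 5 (SE 0.43, adjusted p = 2.56e-08, limma), the fifth highest of 21005 genes on day 5. Without day 0 replicate 1 or day 0 replicate 2 the day 4 difference passed (adjusted p = 6.79e-05 and 0.000371, limma). From day 4 to day 5 Mab21l1 rose by 5.04 in GFP-positive cells (adjusted p = 7.85e-08, limma). In GFP-negative cells the difference was 2.14 (adjusted p = 0.00218, limma), and it passed without day 0 replicate 1 or day 0 replicate 2 (adjusted p = 0.000111 and 0.000616, limma). The change of the gate difference was 2.90 (adjusted p = 0.0172, limma).

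The log2 ratio of Mab21l1 to Mab21l2 at day 4 was -6.09 ± 0.32 (GFP-negative) against -4.24 ± 0.10 (GFP-positive), and at day 5 it was -4.65 ± 0.02 against -1.51 ± 0.18 (SD over 3 libraries). The libraries of these 4 groups did not overlap.

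Both Mab21 genes lie within the span of a longer gene on the opposite strand, Mab21l1 within Nbea and Mab21l2 within Lrba. They share 981 and 1097 exonic bases with it, and 38.6% and 34.3% of their 31-base words. For the other 6 members the share with any gene was at most 1.42%. Mean normalized counts of Nbea were 1413 (GFP-negative) against 1920 (GFP-positive) at day 4, then 1605 against 2476 at day 5. Its gate difference on day 5 was 0.63 (adjusted p = 0.00206, limma). Lrba had 2085, 2267, 2218 and 3848 in the same order, with a day 5 gate difference of 0.79 (adjusted p = 5.06e-05, limma). Neither host gene passed the fold threshold between the gates, and their differences were below those of the Mab21 genes on day 5. How reads from the shared bases were split was not tested.

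**Figure D4:**
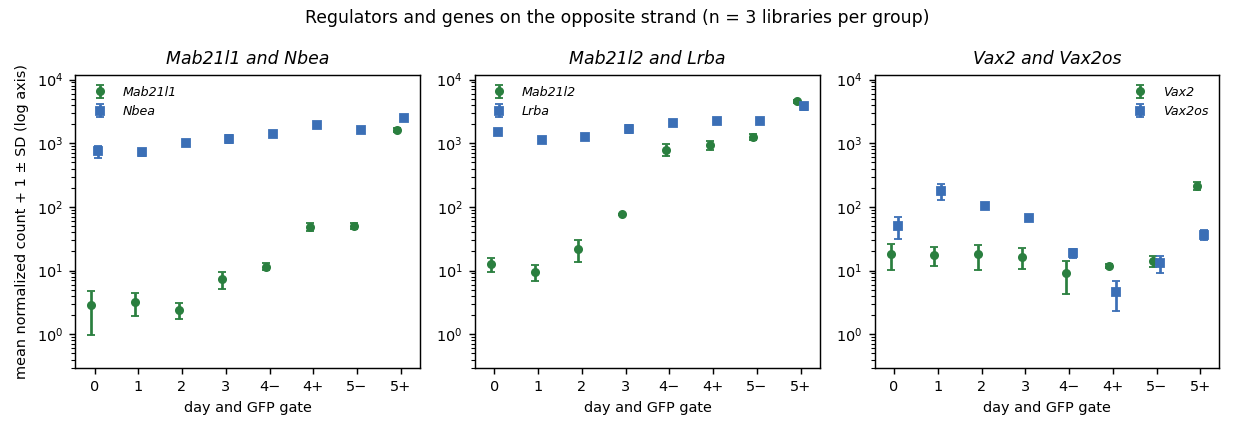
Mean normalized count plus 1 with SD (n = 3 libraries per group) on a log axis for Mab21l1 with Nbea, Mab21l2 with Lrba and Vax2 with Vax2os, by day and GFP gate. In day 5 GFP-positive cells the host genes Nbea and Lrba have means of 2476 and 3848 and Mab21l1 and Mab21l2 means of 1602 and 4554, and Vax2os has its highest mean, 177, on day 1, while Vax2 has its highest, 212, in day 5 GFP-positive cells.

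Vsx1 (ENSMUSG00000033080, chromosome 2 from 150680702 to 150689360, minus strand) was the member with its highest levels on day 4, and these were low. The day 4 GFP-negative libraries had 29.3, 25.2 and 22.2 normalized counts and the GFP-positive libraries 34.1, 23.8 and 30.0, which overlapped. The day 5 GFP-negative libraries had 6.72, 4.02 and 12.4 and the GFP-positive libraries 10.9, 11.7 and 11.8, which also overlapped. In both gates every day 5 library lay below every day 4 library.

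The gate difference of Vsx1 was 0.18 on day 4 with a 95% interval of -0.64 to 1.01 (adjusted p = 0.844, limma) and 0.63 on day 5 (adjusted p = 0.347, limma). The day 5 minus day 4 difference was -1.27 in GFP-positive cells (adjusted p = 0.0462, limma) and -1.72 in GFP-negative cells (adjusted p = 0.00687, limma), neither past the threshold. From day 3, at 9.03 ± 6.02, the difference was 1.74 in GFP-positive cells (adjusted p = 0.00133, limma) and 1.56 in GFP-negative cells (adjusted p = 0.0075, limma). The former passed without day 3 replicate 1 (2.20, adjusted p = 0.000154, limma) and in 3 fits without a library of another group (adjusted p from 0.000877 to 0.00099). From day 0 to day 3 the difference was 1.64 (adjusted p = 0.00199, limma), which passed without day 3 replicate 2 (adjusted p = 0.000821). Between day 0 and day 3 the group means ranged from 1.94 to 9.03 normalized counts.

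Steps in time were also compared. In GFP-positive cells from day 4 to day 5, 5 of 8 members rose (Mitf, Vax2, Tbx2, Mab21l1 and Mab21l2), against 0.595% of genes. In GFP-negative cells, limma called 0 of 8, against 0.762% of genes called higher and 0.509% called lower, and at an unadjusted p under 0.05 there were 3, Mab21l1 and Mab21l2 with higher and Vsx1 with lower values (12.6% of all genes higher and 10.3% lower at that cut). From day 3 to GFP-positive cells of day 4, Vax1, Mab21l1 and Mab21l2 rose (3 of 8, against 3.33% of genes), and from day 3 to GFP-negative cells of day 4 it was Mab21l2 (1 of 8, against 2% of genes). From day 0 to day 3, 1 of 8 was called, again Mab21l2 (against 5.91%). Comparisons that end or start in the same group share its libraries.

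The levels of the members differed widely when counted per kilobase of the longest annotated transcript. In GFP-positive cells of day 5, Mab21l2 had 1685 ± 95.8 normalized counts per kilobase and Mab21l1 643 ± 46.6. Vax1 had 175 ± 38.6, Vax2 171 ± 25.2, Tbx2 146 ± 19.7 and Mitf 140 ± 21.9. The levels of these 4 overlapped within 1 SD of their means. Tbx5 had 11.8 ± 3.72 and Vsx1 3.02 ± 0.13 (SD, n = 3 each).

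The gene lists for the parts of the eye give the setting of these values, to be read against 0.4% of all genes called higher and 4.61% called lower between the day 5 gates. Of 11 neural retina genes that passed the filter, 4 were higher in GFP-positive cells on day 5 (Six6, 4.97; Lhx2, 2.96; Six3, 2.62; Pax6, 1.83) and Fgf15 was lower (-2.23). Of 12 pigment epithelium genes, 2 were lower, Tfec (-4.17), a relative of Mitf, and Mlana (-2.11, from means of 4.60 and 0.352 normalized counts in the GFP-negative and GFP-positive gate, both under 10), and the other 10 did not pass. Dct, a melanin pathway enzyme, was under the filter with means of 0.915 (GFP-negative) against 16.7 (GFP-positive) normalized counts at day 5. Oca2 (3.59 against 2.71) and Rpe65 (1.67 against 0.290), also under the filter, lay the other way. Genes under the filter were not tested. The medians of these lists were 0.95 and 0.02 log2, against -0.0017 over all genes.

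Of 12 optic stalk and ventral genes, Aldh1a3 (3.01) and Pax2 (2.23) were higher in GFP-positive cells on day 5, and Shh (-3.53) and Gli1 (-1.55), the Hedgehog ligand and a target of its pathway, were lower. Of 13 dorsal and BMP genes, Efnb2 (1.54) was higher and Msx2 (-2.30), Tbx3 (-2.18) and Msx1 (-1.78) were lower. The medians were 0.08 and -0.13.

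Of 13 other T-box genes, 5 were lower, T (-3.95), Eomes (-3.94), Tbx4 (-3.53), Tbx1 (-2.97) and Tbx3 (-2.18), and the other 8 did not pass. The median of this list was -1.15. Tbx2, at 3.01, stood on the other side of 0 from these 5. Of 4 other genes of the MiT/TFE and Mab21 families, Tfec was lower (-4.17), and the other 3 did not pass, Mab21l3 having 0.19. On day 4, when 0.328% of all genes were called higher and 3.63% lower, the corresponding counts were 4 of 11 higher for neural retina, 1 of 12 lower for pigment epithelium and 1 of 12 higher for stalk and ventral. For dorsal and BMP they were 1 of 13 higher and 3 of 13 lower, for other T-box 4 of 13 lower and for MiT/TFE and Mab21 1 of 4 lower.

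**Figure D5:**
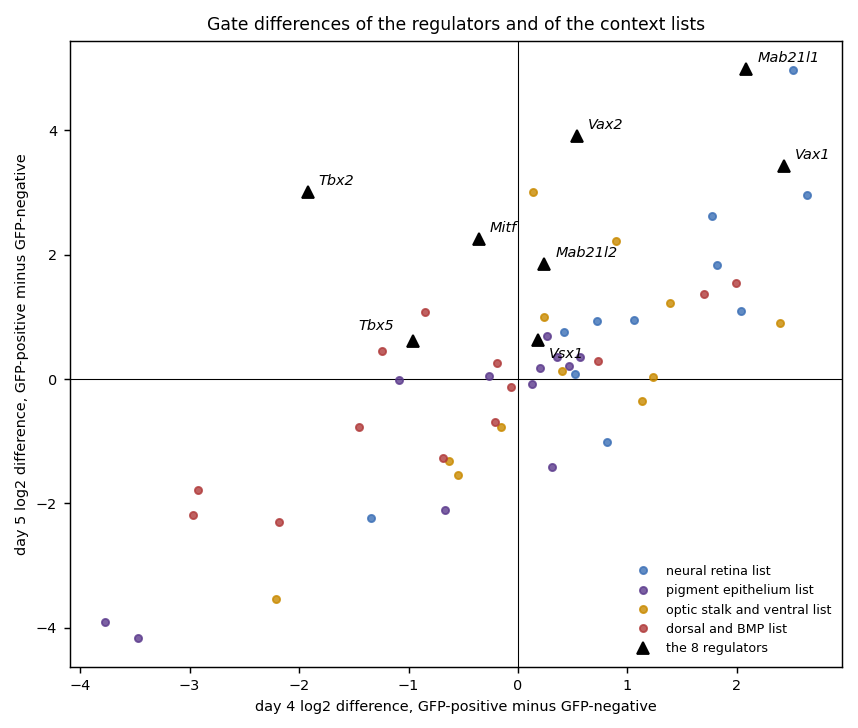
Difference between gates on day 4 (horizontal) and day 5 (vertical), both as log2(value + 1), GFP-positive minus GFP-negative, for the 8 regulators (triangles) and the genes of 4 lists (circles). Tbx2 stands at -1.92 and 3.01, in the upper left, and Mab21l1 at 2.09 and 4.99, in the upper right.

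Markers of other cells that passed the test were all lower in GFP-positive cells on both days. Over all genes, 3.63% were called lower on day 4 and 4.61% on day 5. On day 4 the summed level of 7 cardiac and lateral mesoderm markers, the setting in which Tbx5 is best known, was 1228 to 4468 normalized counts in GFP-negative and 97.6 to 330 in GFP-positive libraries, with 4 of 7 lower, and all 6 pluripotency markers and 4 endoderm markers were lower. The surface ectoderm markers summed to 10559 to 14350 and 4872 to 5507 (3 of the 5 tested lower), and 3 of 7 neural crest and melanoblast markers were lower. The hypothalamus and ventral forebrain markers summed the other way, at 161 to 182 and 298 to 309, with a median difference of 0.66 and 0 of 6 called. On day 5 the mesoderm markers summed to 2041 to 5417 normalized counts in GFP-negative and 126 to 257 in GFP-positive libraries of day 5, with 6 of 7 lower in GFP-positive cells. The 6 pluripotency markers summed to 6037 to 7296 and 409 to 540, with all 6 lower. The 7 neural crest and melanoblast markers summed to 5151 to 5680 and 3613 to 4367 (4 lower), and the 6 surface ectoderm markers to 8146 to 12459 and 3141 to 3324 (3 of the 5 tested lower). The 4 endoderm markers summed to 2015 to 2898 and 119 to 160 (4 lower). The 6 hypothalamus and ventral forebrain markers summed to 450 to 699 and 741 to 1028, with a median difference of 0.04 and 0 of 6 called. In the gated groups none of these markers was at 0 in all libraries of a group. Their part in the gate differences of the regulators was not tested.

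Over the 24 libraries, the genes with the most similar profile to each member were named by Pearson correlation of log2(value + 1), as a description of libraries that share groups. For Mitf these were Vax2 (0.861), Gm15222 (0.857) and Pdlim5 (0.856). For Vax1 they were Tmem169 (0.939), Gm27197 (0.929) and Maf (0.925), and for Vax2 they were Aldh1a3 (0.933), Mitf (0.861) and A830092H15Rik (0.847). Tbx2 was closest to Plppr5 (0.879), Gm43517 (0.867) and Ptdss1 (0.852), and Tbx5 to Camk2d (0.882), Gm2693 (0.860) and Cdon (0.852). Mab21l1 was closest to Pax6os1 (0.967), Dkk3 (0.963) and Hspa4l (0.955), and Mab21l2 to Lrfn3 (0.985), Ddx25 (0.983) and Tox2 (0.983). Vsx1 was closest to Gm10046 (0.901), Lrig3 (0.889) and Hesx1 (0.880).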

How the data were processed

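Polyadenylated RNA of 24 libraries (8 groups of 3) was sequenced by the authors, who quantified reads with kallisto 0.43.1 against mm10 and deposited signal values: counts divided by DESeq2 size factors. Low values were whole multiples of 1 read in 45.3 to 76.7% of cases (tolerance 0.1), so the reads could not be rebuilt and tests for counts were not applied. Size factors assume that most genes do not change. The 9 columns of the authors' own comparisons were not used.

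The deposited values were transformed as log2(value + 1) and kept with at least 10 in at least 3 libraries. limma 3.58.1 (R 4.3.3) fitted group means to all 24 libraries with a mean-variance trend, Benjamini-Hochberg adjustment within each contrast, and no replicate block. Fold changes of low genes are understated on this scale. The fit was tested on simulated data. Python 3.11.15 with numpy 2.4.6 and pandas 2.3.3 gave the summaries.

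Named were the 8 members, Rax, overlapping genes, the 3 most similar profiles, and at most 4 called genes per list (5 for neural retina and for other T-box genes, the fifth named after its values were seen). Also named were Mab21l3 and the pigment epithelium genes under the filter. The members and lists were chosen with earlier results of these data known. Alternatives covered pseudocount, filter, scaling, trend, weights, samples fitted, block, thresholds and leaving out each library. Replicate numbers were not used to pair libraries. Some items are not reported here, and the list counts leave them out.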

Additional observations from a re-analysis of the deposited data

Results flagged for a closer look

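For Mitf, the difference between GFP-positive and GFP-negative cells changed between the days: the interaction was 2.61 on the log2 scale (limma), and every GFP-positive library lay below the GFP-negative ones at day 4 and above them at day 5. For Tbx2 the same change was 4.93, and the gates again had opposite order on the days. Both passed the test of the change itself, though Tbx2 fell short in 3 of 12 fits without 1 of the gated libraries. Neither day 4 difference passed (Mitf -0.36, adjusted p = 0.329, Tbx2 -1.92, adjusted p = 0.00349, limma). Over all genes, 20.5% lay wholly lower in the GFP-positive gate on day 4.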

How the results depend on the processing

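After removal of group means, libraries with the same replicate number correlated by -0.00054 on average, 10 of 84 pairs being above 0.1. Between the gates of a day the values were -0.108 to 0.023 on day 4 and -0.075 to 0.147 on day 5. With 3 libraries per gate, these cannot tell whether the gates of a day came from the same organoids. All 3 pairs were above 0.1 for day 3 with day 5 GFP-negative cells, which are not compared here, and for no other groups. With the replicate number as a block over all groups, 0 members were called between the day 4 gates (3.8% of all genes, either direction). Between the day 5 gates 6 were called (4.77%), and for the change between the days 2 (0.0714%). In GFP-positive cells from day 4 to day 5, 5 were called (1.39%). No other count of called members moved with the block.

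Shares in brackets are of all genes, in either direction. For the day 4 gates (0 called, 3.96%), 2 members were called with a pseudocount of 5 (3.55%), 1 with quantile normalization (3.08%), 3 with array weights (6.89%), 1 in a fit of those groups alone (1.36%), and 3 at an adjusted p under 0.05, with any change (15.7%) or with a change above 1 (9.64%). For the change of the gate difference (2 called, 0.109%), a pseudocount of 5 gave 4 (0.176%), array weights 5 (0.728%), and an adjusted p under 0.05 gave 5 with any change (1.1%) or a change above 1 (0.905%). For GFP-negative cells from day 4 to day 5 (0 called, 1.27%), the pseudocount gave 1 (1.52%), array weights 2 (2.64%) and the looser thresholds 2 (10.2% and 4.96%). For day 3 to GFP-negative cells of day 4 (1 called, 2.88%), array weights (6.88%) and both looser thresholds (18.5% and 9.59%) gave 3. For day 0 to day 3 (1 called, 12%), no trend gave 2 (12%), a fit of those groups alone 0 (2.65%), an adjusted p under 0.05 gave 4 (43.6%), and with a change above 1 it gave 3 (24.9%). The counts for the day 5 gates, for GFP-positive cells from day 4 to day 5 and for day 3 to GFP-positive cells of day 4 stayed within 1.5 times of 6, 5 and 3 under all of these.

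Leaving out 1 library at a time gave 0 to 2 called members for the day 4 gates (2 without day 0 replicate 1, 1 without day 0 replicate 2 or day 1 replicate 2), 5 to 6 for the day 5 gates, 1 to 2 for the change between the days, 0 to 1 for GFP-negative cells from day 4 to day 5 (1 without day 0 replicate 1 or 2) and 1 to 2 for day 0 to day 3 (2 without day 0 replicate 2 or day 3 replicate 2). For the day 4 gates, 84 and 862 of 21005 genes were called higher and lower without day 0 replicate 1 (main fit 69 and 763). The day 5 gates had 62 and 745 without day 5 GFP-negative replicate 1 (84 and 968). The change had 3 and 5 without day 4 GFP-positive replicate 1 (16 and 7). GFP-negative cells had 203 and 124 without day 0 replicate 1 (160 and 107). Day 0 to day 3 had 1223 and 1063 without day 0 replicate 2 (1241 and 1286). The cause was not tested.

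Of the single-gene values under the settings other than leaving out 1 library, 628 kept their direction and side of the threshold, 52 gained a call and 3 lost one (Vax1 in the day 5 gates with a pseudocount of 0.5 or no filter, and Mab21l2 from day 0 to day 3 in a fit of those groups alone). The sign turned for 5 differences near 0 that had not passed: from day 3 to GFP-positive cells of day 4, Mitf to 0.000335 (quantile normalization), Vax2 to 0.038 (array weights) and Tbx5 to -0.014 (pseudocount of 5), and from day 0 to day 3, Vax2 to 0.050 (quantile normalization) and Tbx5 to -0.37 (array weights). With 1 library left out, ranges that crossed 0 were -0.013 to 0.65 for Tbx2 in GFP-negative cells from day 4 to day 5, -0.39 to 0.47 for Tbx5 from day 3 to GFP-positive cells of day 4, and -0.38 to 0.21 for Vax2 and -0.054 to 0.81 for Tbx5 from day 0 to day 3.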
